A study of Felis catus with 23 samples.

Results

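The miR-223 group is a set of 6 microRNAs (miRNAs) that are known from platelets and myeloid cells: miR-223-3p, miR-197-3p, miR-151a-3p, miR-151a-5p, miR-28-3p and miR-340-5p. The members were chosen by their names on the array (hsa-miR-223-3p, hsa-miR-197-3p, hsa-miR-151a-3p, hsa-miR-151a-5p, hsa-miR-28-3p and hsa-miR-340-5p, where hsa stands for the human design), as 6 of the 2026 miRNA names on the array, and were represented by 14 of its 4944 probes. Serum of 23 cats was read, 1 array per cat. Of these, 11 had hypertrophic cardiomyopathy (HCM), a disease in which the heart muscle thickens, and 12 were healthy; the labels used here name no genotype, breed or treatment. Per the labels, blood of both groups was left 20 min to clot before a 5 min spin at 600 g, and sera were kept at -80 °C. Because every sample was clotted serum, release of these miRNAs on clotting was not tested, and only their variation between sera could be described. HCM arrays lay in row 1 and healthy arrays in row 2 of each of 3 slides, so row and group cannot be told apart. On slides 2 and 3 there were 4 arrays of either group, and on slide 1 there were 3 of HCM and 4 of healthy cats. The array was designed for human miRNAs, and each name below is the human name of a probe.

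A miRNA is cut from a hairpin precursor, and either arm, named 5p or 3p, can be loaded into the silencing complex, where it pairs with target messenger RNAs and lowers their output. miR-223 is a myeloid miRNA, abundant in neutrophils and monocytes, and is also carried by platelets, which shed it in vesicles on activation. miR-197 and miR-151a are regularly found in platelets and in serum. The hairpin of miR-151a lies within PTK2, the gene of focal adhesion kinase, that of miR-28 within LPP, and that of miR-340 within RNF130. In serum, a change in the number of cells that release a miRNA and a change in the amount each cell releases cannot be told apart.

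Array signal varied widely. The 75th percentile intensity, the measure used for scaling, ranged from 90.5 to 699, and an array detected between 322 and 612 names. Healthy replicate 16, on slide 3, stood apart in this group: it had the highest value of miR-223-3p and of miR-197-3p, and the highest ratio of the red cell miRNA miR-451a to miR-23a-3p. The tests of co-variation between members and the medians over most lists are therefore also given without it.

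Only 3 of the 6 names were measured in most sera. miR-151a-3p was detected on 23 of 23 arrays, miR-223-3p on 21 (10 HCM and 11 healthy) and miR-197-3p on 18 (10 HCM and 8 healthy), where detected means that at least 50% of the probe's spots were well above background. These counts are those of the main probe, the probe of a name with the highest mean. The second probe of miR-223-3p was detected on 23 arrays and that of miR-197-3p on 17. By contrast, the main probe of miR-28-3p was detected on 3 arrays, that of miR-340-5p on 1 and that of miR-151a-5p on 0. The last 3 did not reach the 6 arrays required for testing, so they are absent from every test below.

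**Figure D1:**
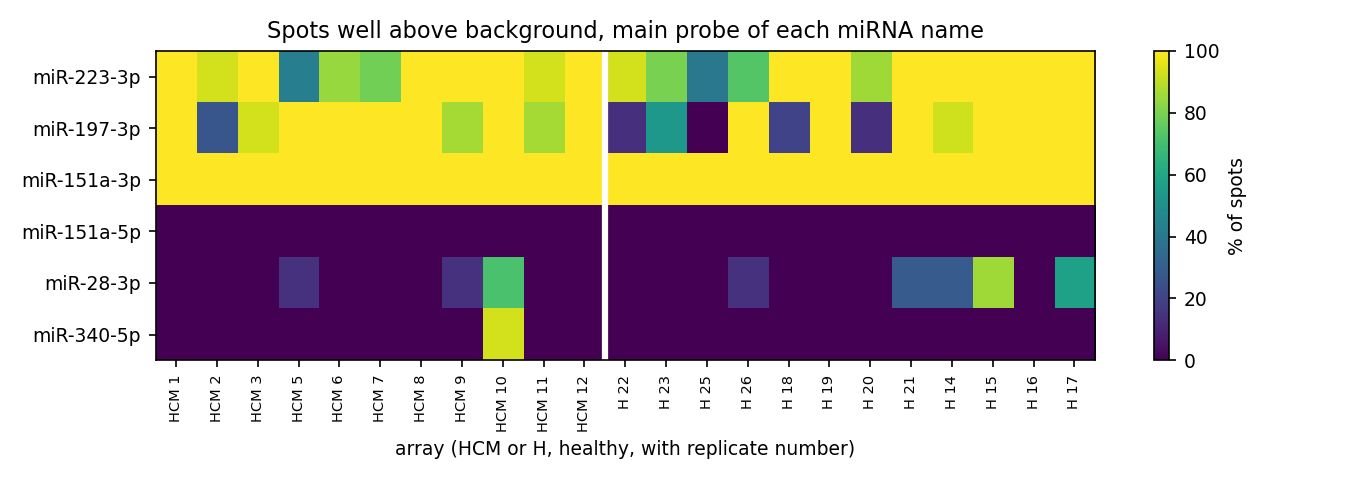
Share of spots well above background (%, colour) for the main probe of the 6 names (rows) on the 11 HCM and 12 healthy arrays (columns, by slide within each group). miR-223-3p, miR-197-3p and miR-151a-3p are above background on most arrays, miR-28-3p and miR-340-5p on 3 and 1, and miR-151a-5p on 0.

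The arms of the miR-151a hairpin differed in detection. Both probes of miR-151a-3p were detected on all 23 arrays. Neither of the probes for miR-151a-5p was detected on any array, and the unscaled intensity of its main probe lay between -1.10 and 1.81 after background subtraction. No spot of that probe was well above background on any of the 23 arrays. Whether the human probe matches the cat 5p sequence was not tested, and probe brightness cannot be compared between probes, so no arm ratio is given.

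For miR-28-3p, the main probe had an unscaled intensity between -0.33 and 7.10, with a median of 2.42. The 3 arrays that detected it were HCM replicate 10 at 6.51, healthy replicate 15 at 7.03 and healthy replicate 17 at 7.10. All of them were on slide 3 and were bright, with 75th percentile intensities of 427, 699 and 341 beside a median of 283 over all arrays. Bright arrays that did not detect it included HCM replicate 12, also on slide 3, with a 75th percentile of 503 and a reading of 2.74. HCM replicate 5 on slide 2, with 417 and a reading of 5.31, did not detect it either. HCM replicate 10 was also the only array that detected miR-340-5p, at an intensity of 8.17 beside a median of 0.28 over the 23 arrays. The part of array brightness in these detections was not tested.

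Among partner arms and relatives from the same hairpin family, 4 of 7 names were detected on no array: miR-223-5p, miR-28-5p, miR-340-3p and miR-708-3p. miR-151b was detected on 3 arrays, miR-708-5p on 8 and miR-197-5p on 23. miR-708 shares the hairpin family of miR-28 and miR-151.

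The comparison of HCM with healthy serum asked whether any of the 3 measured names differed with the disease. None passed. With limma and Benjamini-Hochberg adjustment over the 543 tested names, 0 of the 3 were called at an adjusted p of 0.05, beside 0 of 543 overall (0%). At an unadjusted p under 0.05 there were 0 of the 3 members, beside 36 of 543 (6.63%). The differences of miR-223-3p and miR-151a-3p were negative and that of miR-197-3p positive, where 66.5% of all tested names had a negative difference and their median was -0.10 on the log2 scale.

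miR-223-3p had the largest difference of the 3. In HCM serum its scaled log2 value was 2.45 at the lowest, 3.31 at the median and 4.38 at the highest, and in healthy serum 2.45, 3.76 and 6.89. The ranges overlapped, and 8 of 11 HCM arrays lay below the healthy median. Mean values were 3.37 ± 0.60 (SD, n = 11) in HCM and 3.93 ± 1.17 (SD, n = 12) in healthy serum. Their difference was -0.56 (SE 0.37, 95% interval -1.32 to 0.20), a level in HCM of 0.679 times the healthy one, with a limma p of 0.143 and an adjusted p of 0.802. Without healthy replicate 16 the difference was -0.29. That p does not show that the groups were alike, since the interval holds differences as large as -1.32.

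For miR-197-3p, the lowest, median and highest values were 2.78, 3.70 and 4.76 in HCM and 2.45, 3.51 and 4.97 in healthy serum. Healthy replicates 18, 20, 22 and 25 and HCM replicate 2 did not detect it, at unscaled intensities of 5.81, 4.76, 4.84, 4.32 and 4.84. Their scaled values of 2.45 (the floor), 3.75, 3.57, 3.45 and 3.03 are part of every value given here. The median unscaled intensity was 17.2 in HCM and 11.2 in healthy serum. HCM arrays lay above the healthy median in 7 of 11 cases, and the groups overlapped over nearly their whole range. The means were 3.66 ± 0.67 (SD, n = 11) and 3.50 ± 0.72 (SD, n = 12), a difference of 0.16 (SE 0.28, 95% interval -0.41 to 0.74, limma adjusted p 0.880). That difference was between 0.05 and 0.09 without HCM replicate 7 or 8, or healthy replicate 14, 15 or 18. It was 0.25 without HCM replicate 9 and 0.30 without healthy replicate 16.

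miR-151a-3p, the detected arm of its hairpin, ranged from 4.37 over a median of 5.95 to 7.50 in HCM. In healthy serum it ranged from 5.36 over a median of 5.82 to 8.49. Healthy replicate 21 and HCM replicate 8, both on slide 2, were the highest arrays of their groups. The means were 5.84 ± 0.90 (SD, n = 11) and 6.11 ± 0.85 (SD, n = 12), a difference of -0.27 (SE 0.34, 95% interval -0.98 to 0.44, limma adjusted p 0.825). It was -0.05 without healthy replicate 21, -0.12 without HCM replicate 12, -0.16 without HCM replicate 2 and -0.43 without HCM replicate 8.

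**Figure D2:**
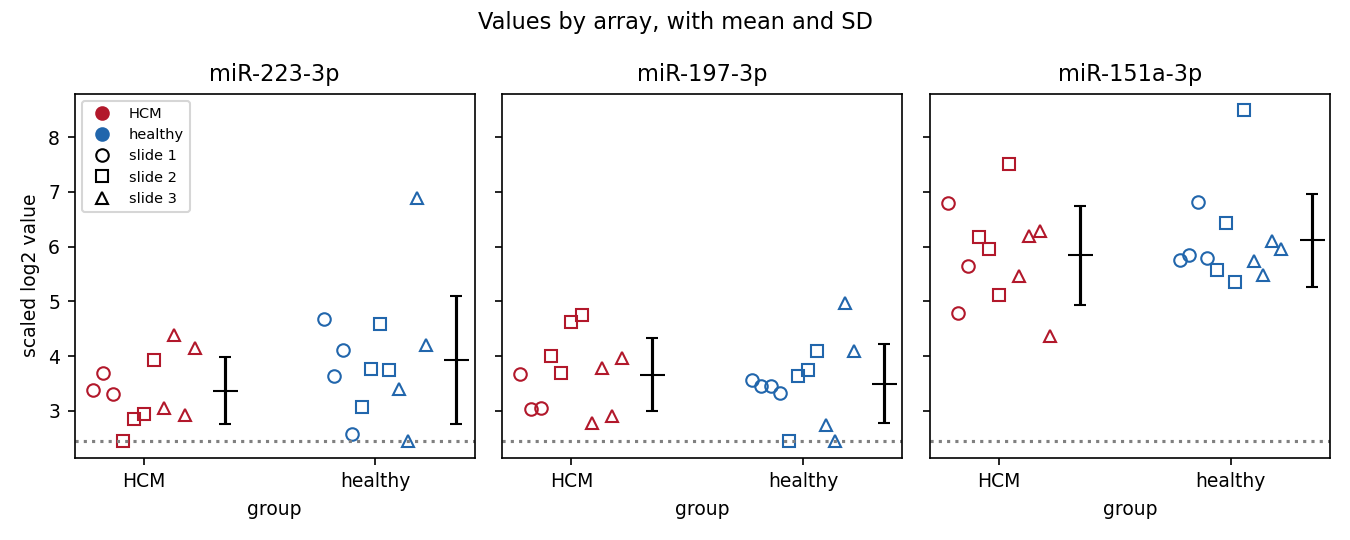
Scaled log2 values of the 3 measured names (vertical axis) in HCM and healthy serum, 1 symbol per array with its slide, with mean and SD in black and the floor of 2.45 as a dotted line. The groups overlap for each name, and healthy replicate 16 reaches 6.89 for miR-223-3p.

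Spread between arrays was larger than the error within an array. Error between arrays, such as that of the scaling factor, is shared by all spots and probes of an array and is not part of the values that follow. The standard error from the spots of a probe on an array was 3.70% of the signal for miR-223-3p, 3.22% for miR-197-3p and 1.77% for miR-151a-3p (medians over the arrays that detected it). Both probes of each name ran in parallel over the 23 arrays, with Pearson's r of 0.980, 0.983 and 0.995 in the same order, as a description. The SD of the log2 difference between the probes was 0.21, 0.16 and 0.09, beside an SD over arrays of 0.97, 0.69 and 0.87. Of the 543 tested names, 91.0% had an SD no larger than that of miR-223-3p, 75.3% no larger than that of miR-197-3p and 87.7% no larger than that of miR-151a-3p.

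Slide by slide, the difference of miR-223-3p was -0.29, -0.75 and -0.61 on slides 1, 2 and 3, and that of miR-151a-3p -0.31, -0.28 and -0.24. miR-197-3p was positive on slide 2 alone, at 0.79, and stood at -0.20 on slides 1 and 3. A difference in the group effect between slides was not called for any of the 3 (limma F test of the interaction, adjusted p 0.998 each), and over all names 0 of 543 were called (0%), with 13 (2.39%) at an unadjusted p under 0.05. The interaction p of miR-197-3p was 0.241 before adjustment. With slide as a block, the group differences were -0.56, 0.14 and -0.28 for miR-223-3p, miR-197-3p and miR-151a-3p, with limma adjusted p of 0.783, 0.879 and 0.799.

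**Figure D3:**
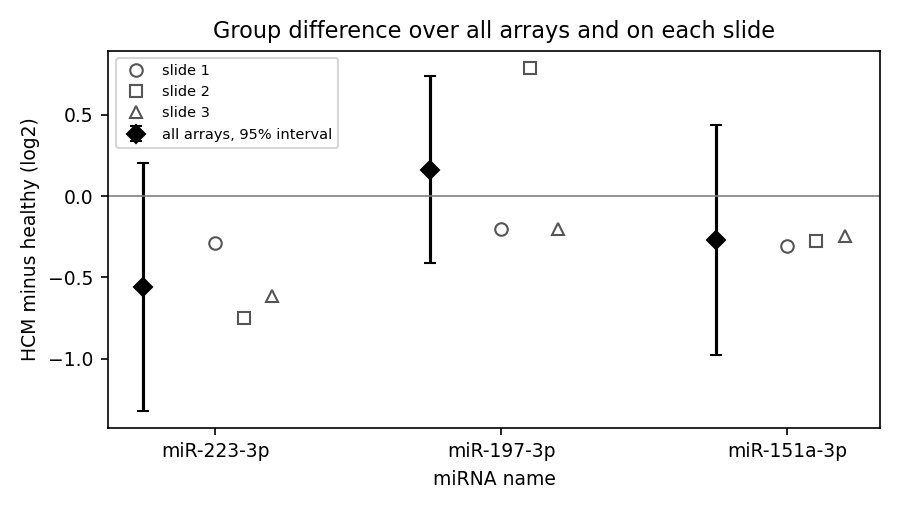
HCM minus healthy on the log2 scale for the 3 measured names, over all arrays (diamonds, with 95% interval) and on each slide (open symbols). Each interval includes 0, and miR-197-3p is at 0.79 on slide 2 and -0.20 on slides 1 and 3.

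Slides were also compared with each other. miR-197-3p was 3.36 ± 0.25 on slide 1 (SD, n = 7), 3.88 ± 0.71 on slide 2 (SD, n = 8) and 3.46 ± 0.87 on slide 3 (SD, n = 8). It was detected on 4 arrays of slide 1, 6 of slide 2 and 8 of slide 3. miR-223-3p was 3.63 ± 0.66, 3.42 ± 0.70 and 3.93 ± 1.38, and miR-151a-3p was 5.92 ± 0.70, 6.32 ± 1.15 and 5.70 ± 0.62, in the same order. The slide term was not called for any of them in limma (adjusted p 0.725 for miR-223-3p, 0.540 for miR-197-3p and 0.556 for miR-151a-3p), and over all names 0 of 543 were called (0%), with 68 (12.5%) at an unadjusted p under 0.05. On each slide the arrays of a name spread over a wider range than its slide means.

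Co-variation of the measured names was then examined over the 23 arrays. The question was whether sera high in one name were high in the others, and 3 pairs could be formed. Scaled values of arrays that did not detect a name were kept. Over all 147153 pairs of the 543 tested names, the median Pearson's r was 0.02, with quartiles of -0.20 and 0.25.

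miR-223-3p and miR-197-3p co-varied over the 23 arrays, but their r over all arrays did not pass without 1 serum. Pearson's r was 0.537 (permutation p 0.00719, adjusted p 0.0216 over 3 pairs) and Spearman's rho 0.450 (permutation p 0.0321, adjusted p 0.0964). Of all pairs of tested names, 92.0% had an r no larger than 0.537. With miR-223-3p, 15.3% of the other tested names had an r above 0.5. Healthy replicate 16 led both names, with 6.89 and 4.97. Without it r was 0.352 (permutation p 0.108), and without the 2 arrays farthest from the median of miR-223-3p, healthy replicate 16 and HCM replicate 5, r was 0.449 (permutation p 0.0416). After adjustment over the 3 pairs, neither of these passed.

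Within groups and slides the pair behaved unevenly. Among the 12 healthy sera r was 0.824 (permutation p 0.00102, n = 12), and 0.679 without replicate 16, whereas among the 11 HCM sera it was 0.170 (permutation p 0.614, n = 11). On slide 3 the 8 arrays gave an r of 0.938 (exact permutation p 0.000893), which was 0.934 without healthy replicate 16. Slide 1 gave 0.296 (exact permutation p 0.529, n = 7) and slide 2 gave 0.116 (exact permutation p 0.793, n = 8). The difference between the groups in r, and that between the slides, was not tested. Taken as deviations from the mean of each group on each slide, the pair had an r of 0.807, and 0.692 without healthy replicate 16.

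The arrays of slide 3 show the pattern directly. Healthy replicates 16 and 17 and HCM replicates 10 and 12 read 6.89, 4.21, 4.38 and 4.15 for miR-223-3p, and 4.97, 4.10, 3.79 and 3.96 for miR-197-3p. The remaining arrays of that slide, healthy replicates 14 and 15 and HCM replicates 9 and 11, read 3.41, 2.45, 3.05 and 2.92 for miR-223-3p and 2.74, 2.45, 2.78 and 2.91 for miR-197-3p. So the same arrays of slide 3, from both groups, were high for both names. HCM replicates 5 and 7 on slide 2 broke the pattern, with miR-197-3p at 4.01 and 4.63 and miR-223-3p at 2.45 and 2.95.

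miR-151a-3p did not follow miR-223-3p to a measurable degree. Their r was 0.080 (permutation p 0.696, adjusted p 0.696) and rho 0.133. It was 0.107 without the 2 farthest arrays and 0.083 without healthy replicate 16, both as r. By group r was -0.055 in HCM and 0.083 in healthy serum, and by slide 0.060, 0.249 and 0.189. Against miR-197-3p, miR-151a-3p had an r of 0.311 (permutation p 0.147, adjusted p 0.220) and a rho of 0.332. That r was 0.318 without the 2 farthest arrays and 0.331 without healthy replicate 16. It was 0.272 in HCM, 0.395 in healthy serum and 0.742, 0.318 and 0.081 on slides 1, 2 and 3. The serum with the highest miR-151a-3p, healthy replicate 21 at 8.49, read 3.75 for miR-223-3p, near that name's healthy median of 3.76. The serum with the highest miR-223-3p, healthy replicate 16, read 6.11 for miR-151a-3p.

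**Figure D4:**
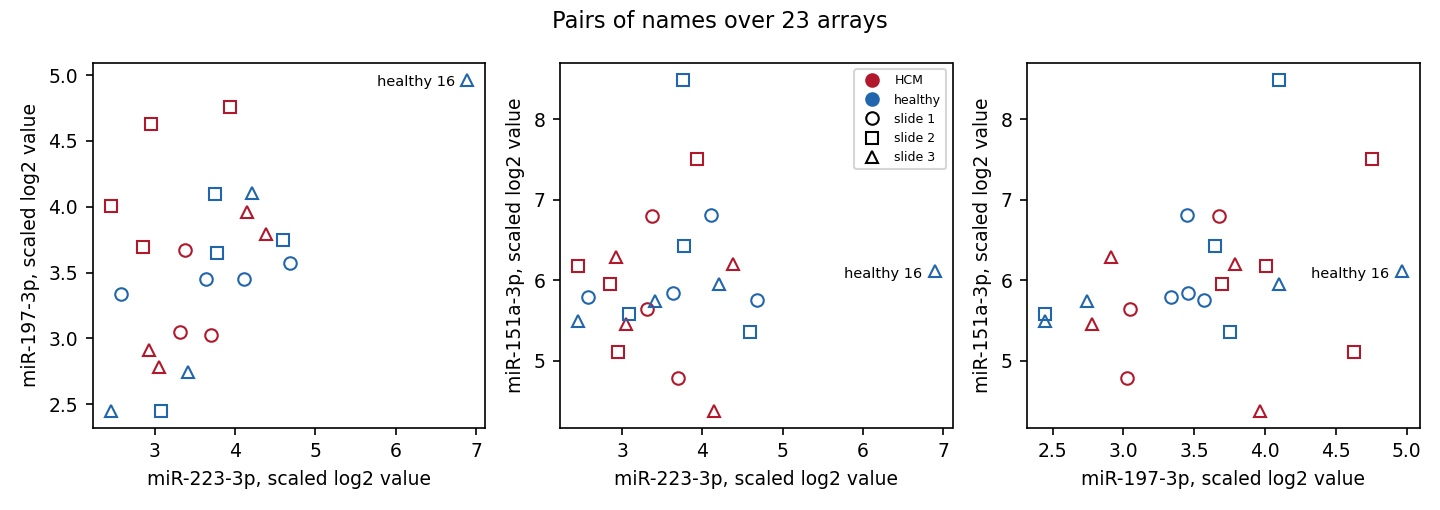
Scaled log2 values of each pair of the 3 measured names over 23 arrays, coloured by group with the slide as symbol. miR-223-3p and miR-197-3p have an r of 0.537, with healthy replicate 16 at the upper right; miR-223-3p and miR-151a-3p have an r of 0.080.

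miR-223-3p co-varied with miR-451a, and less with the other red cell names. Its r over the 23 arrays was 0.817 with miR-451a, 0.354 with miR-25-3p, 0.186 with miR-144-3p and 0.164 with miR-486-5p, as a description. Subtracting the log2 value of miR-23a-3p from that of miR-451a, an abundant red cell miRNA, gives a common measure of haemolysis. It ranged from -3.86 to 3.22, with a mean of -1.45 ± 1.32 (SD, n = 11) in HCM and -0.58 ± 1.75 (SD, n = 12) in healthy serum. Its r with miR-223-3p was 0.728 (permutation p 0.00018, adjusted p 0.00162 over 9 relations) and rho was 0.545 (permutation p 0.00791, adjusted p 0.0712). Without the 2 arrays farthest from its median, healthy replicates 16 and 22, r was 0.430 (permutation p 0.0528), so the call rests on those sera. Without healthy replicate 16 alone it was 0.548 (permutation p 0.00774). Among healthy sera r was 0.873, or 0.744 without healthy replicate 16, and among HCM sera 0.263. On slides 1, 2 and 3 it was 0.723, 0.193 and 0.953, and on slide 3 without that array 0.803. The median r of all tested names with this measure was 0.08.

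The other measured names did not share that relation at the threshold. For miR-197-3p the r with the red cell measure was 0.148 (permutation p 0.501, adjusted p 0.591, rho 0.022). The sign turned without healthy replicate 16, at -0.146, and without the 2 farthest arrays, at -0.196. It was -0.512 in HCM and 0.637 in healthy serum, or 0.359 in healthy serum without replicate 16. On slides 1, 2 and 3 it was -0.269, -0.736 and 0.883, and on slide 3 without healthy replicate 16 it was 0.793. For miR-151a-3p it was -0.136 (permutation p 0.526, adjusted p 0.591, rho -0.055). That r was -0.194 without the 2 farthest arrays, -0.190 without healthy replicate 16, and -0.563, -0.066 and 0.442 on slides 1, 2 and 3. The part of miR-451a or red cell signal in the values of miR-223-3p was not tested.

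Array signal and scaled miR-223-3p were related as well, but the scaled value is the log2 intensity less this same log2 75th percentile, so a nearly constant intensity gives a negative r by construction. The unscaled intensity of miR-223-3p was low, with a median of 10.3, and lay between 6.81 and 15.1 on 19 of 23 arrays. The other 4, at 34.9, 34.9, 24.6 and 77.1, were HCM replicates 10 and 12 and healthy replicates 17 and 16, all on slide 3. With scaling, its r to the log2 75th percentile intensity was -0.523 (permutation p 0.00983, adjusted p 0.0442), beside a median of -0.06 over all tested names, and rho was -0.474 (permutation p 0.0224, adjusted p 0.101). That r was -0.496 without the 2 farthest arrays, healthy replicates 20 and 25, and -0.927, -0.905 and -0.627 on slides 1, 2 and 3. By group it was 0.038 in HCM and -0.611 in healthy serum. Without healthy replicate 16 it was -0.581 over all arrays, -0.828 in healthy serum and -0.07 on slide 3. Without scaling between arrays it was 0.239 (permutation p 0.272), and on the authors' deposited log2 values -0.415 (permutation p 0.0499, adjusted p 0.224). The log2 75th percentile was 8.22 ± 0.49 in HCM (SD, n = 11) and 7.80 ± 0.91 in healthy serum (SD, n = 12). With that signal as a covariate, the HCM difference of miR-223-3p was -0.30 (limma adjusted p 0.839).

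The corresponding r for array signal was -0.223 for miR-197-3p (permutation p 0.306, adjusted p 0.591, rho -0.142) and -0.198 for miR-151a-3p (permutation p 0.366, adjusted p 0.591, rho -0.184). Without the 2 farthest arrays they were -0.268 and -0.237. Without scaling between arrays the sign turned, to 0.543 and 0.564 (adjusted permutation p 0.0170 each). On slides 1, 2 and 3 they were -0.232, -0.122 and -0.496 for miR-197-3p and -0.060, -0.038 and -0.511 for miR-151a-3p. On slide 3 they were -0.02 and -0.470 without healthy replicate 16. The number of names detected per array had an r of -0.307 with miR-223-3p (permutation p 0.155, adjusted p 0.466, rho -0.354), -0.052 with miR-197-3p (permutation p 0.810, rho -0.028) and -0.172 with miR-151a-3p (permutation p 0.436, rho -0.164). In that order they were -0.219, -0.085 and -0.132 without the 2 farthest arrays. On slides 1, 2 and 3 they were -0.854, -0.836 and -0.383 for miR-223-3p, -0.092, 0.044 and -0.184 for miR-197-3p and 0.074, 0.044 and -0.564 for miR-151a-3p. Slide 3 without healthy replicate 16 gave 0.421, 0.455 and -0.530. Without scaling between arrays the sign turned for all 3, to 0.441 (adjusted permutation p 0.0517), 0.644 (0.00837) and 0.548 (0.0170), so 2 of them passed there. Unscaled values keep the brightness of the array, so a positive r with array signal or names detected can arise by construction. Nothing on the members is concluded from the unscaled r with these measures.

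**Figure D5:**
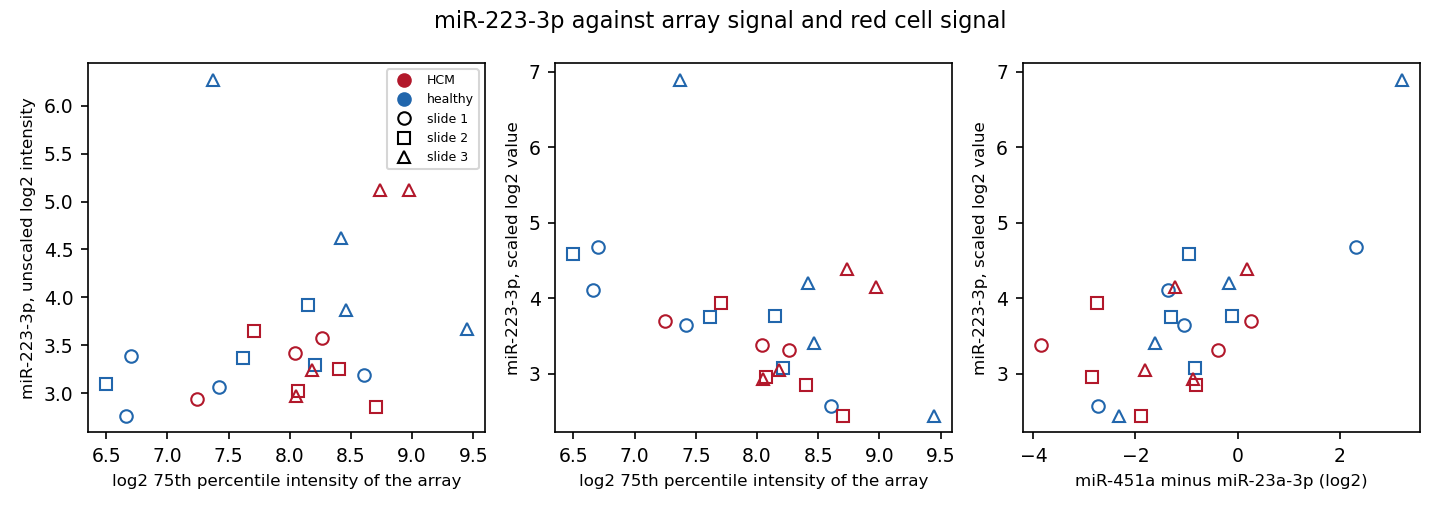
miR-223-3p of the 23 arrays as unscaled log2 intensity and as scaled log2 value against the log2 75th percentile intensity of the array (left and centre), and as scaled log2 value against miR-451a minus miR-23a-3p on the log2 scale (right). Unscaled intensity lies between 6.81 and 15.1 on 19 arrays, and scaled values are lower on brighter arrays (r = -0.523) and higher where miR-451a minus miR-23a-3p is high (r = 0.728).

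The tested names most like each member were then found. Likeness was Pearson's r over the 23 arrays, given without a test because the names share arrays and scaling. Closest to miR-223-3p were let-7i-5p at 0.828, miR-451a at 0.817 and miR-26a-5p at 0.792. Without healthy replicate 16 these were 0.674, 0.655 and 0.614, and their ranks 11, 16 and 30. let-7i-5p was detected on 10 arrays and miR-26a-5p on 9, so many of their values came from arrays that did not detect them.

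miR-197-3p was most like miR-328 at 0.738, miR-631 at 0.735 and miR-484 at 0.661. Without healthy replicate 16 these were 0.709, 0.756 and 0.632, and their ranks 5, 2 and 12. miR-328 was detected on 12 arrays, miR-631 on 10 and miR-484 on 21. miR-151a-3p was most like miR-326 at 0.826, miR-106b-3p at 0.817 and miR-320b at 0.804. These 3 stayed its nearest names without healthy replicate 16, at 0.837, 0.821 and 0.806. They were detected on 22, 11 and 23 arrays in that order.

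Other platelet-rich names gave a reference for the group. Of 16 such names on the array, 8 were tested and 4 were detected on no array. The undetected names included miR-191-5p, a common platelet miRNA, and miR-126-3p, which is found in endothelium and platelets, was detected on 1 array. The r of the 8 tested names with miR-223-3p was positive for 8 of 8, from 0.165 for miR-22-3p to 0.792 for miR-26a-5p, with a median of 0.518 beside 0.111 over all tested names. With miR-197-3p the median was 0.489 beside 0.033, and with miR-151a-3p 0.301 beside -0.001. Without healthy replicate 16 these medians were 0.460, 0.369 and 0.321. In the comparison of HCM with healthy serum, limma called 0 of the 8. Of them 6 were lower and 2 higher in HCM by their means, with a median difference of -0.40 beside -0.10 over all names. The smallest p belonged to let-7b-5p at -0.56 (p 0.103), miR-140-3p at -0.65 (p 0.139) and miR-21-5p at -0.52 (p 0.204), each with an adjusted p of 0.802.

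Markers of other cells were set beside the members in the same way, and several had an r with miR-223-3p above the platelet-rich median of 0.518. Of 7 other myeloid names 2 were tested. miR-142-5p, a miRNA of blood cells in general, was detected on 18 arrays, had an r of 0.631 with miR-223-3p and differed by -0.29 (limma adjusted p 0.877). miR-155-5p, an inflammatory miRNA, was detected on 6 arrays, had an r of 0.056 with miR-223-3p and differed by -0.15 (limma adjusted p 0.802). miR-223-5p, miR-146b-5p and miR-424-5p were detected on no array. The 2 tested myeloid names summed to log2 values of 3.45 to 6.55 in HCM and 3.45 to 5.94 in healthy serum.

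Of 6 lymphoid names 5 were tested, all with negative differences and 0 called by limma. Their median difference was -0.17, beside -0.10 over all tested names, of which 66.5% had a negative difference. miR-150-5p, the lymphoid name not tested, was detected on 1 array. miR-181b-5p differed by -0.25, miR-181a-5p by -0.37 and miR-181d by -0.12. The 4 tested miR-181 names had r of 0.170 to 0.684 with miR-151a-3p and of -0.038 to 0.082 with miR-223-3p. miR-342-3p, the remaining tested lymphoid name, went the other way, with 0.070 for miR-151a-3p, 0.623 for miR-223-3p and 0.469 for miR-197-3p. Over the 5 names the median was 0.432 with miR-151a-3p, -0.012 with miR-223-3p and 0.061 with miR-197-3p, and 0.441, 0.105 and 0.139 without healthy replicate 16. The summed lymphoid level ranged from 6.25 to 8.25 in HCM and from 6.57 to 8.68 in healthy serum on the log2 scale.

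Of 8 red cell names 4 were tested and 0 were called by limma, with a median difference of 0.10 beside -0.10 over all tested names. miR-451a differed by -0.90, miR-144-3p by 0.41 and miR-25-3p by 0.14. Their median r was 0.270 with miR-223-3p, 0.344 with miR-197-3p and 0.212 with miR-151a-3p, and 0.200, 0.225 and 0.213 without healthy replicate 16. Their summed level ranged from 10.66 to 13.52 in HCM and from 10.53 to 13.83 in healthy serum.

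Among 4 vessel wall names, 3 were tested and limma called 0. miR-222-3p differed by -0.45, miR-221-3p by -0.28 and miR-145-5p by 0.27. Their r with miR-223-3p was 0.507, 0.664 and 0.052. The median r of the 3 was 0.507 with miR-223-3p, 0.386 with miR-197-3p and 0.419 with miR-151a-3p, and 0.605, 0.402 and 0.418 without healthy replicate 16, where the platelet-rich names had 0.460, 0.369 and 0.321. Of the liver list 1 of 4 names was tested, miR-122-5p, with a difference of 0.02 and r of 0.548, 0.268 and -0.099 with miR-223-3p, miR-197-3p and miR-151a-3p (0.630, 0.219 and -0.106 without healthy replicate 16). Of the muscle list 1 of 7 was tested, miR-133b, with a difference of 0.55 (limma adjusted p 0.813) and r of 0.389, 0.323 and 0.063 in that order (0.352, 0.262 and 0.058 without healthy replicate 16).

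miR-197-5p, named as the partner arm of miR-197-3p, was also looked at. Whether its human probe matches the cat 5p sequence was not tested. It read 11.44 ± 0.45 in HCM (SD, n = 11) and 10.91 ± 0.58 in healthy serum (SD, n = 12), a difference of 0.53 (SE 0.22, limma p 0.0221, adjusted p 0.614), which did not pass. Its r with miR-197-3p over the 23 arrays was -0.207, near the lower quartile of -0.20 over all pairs of tested names. With miR-223-3p it was -0.568, both as a description. miR-708-5p, the other tested relative, differed by -0.10 (limma adjusted p 0.891).

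The deposited log2 values of the authors were compared for the same probes. Over the 23 arrays they had an r of 0.963 with the scaled values for miR-223-3p, 0.971 for miR-197-3p and 0.970 for miR-151a-3p. HCM replicate 6 stood out for miR-223-3p, at 3.98 in the deposited table and 2.85 here. On the deposited values the differences were -0.31, 0.28 and -0.13 for miR-223-3p, miR-197-3p and miR-151a-3p, each with a limma adjusted p of 0.972. miR-223-3p and miR-197-3p had an r of 0.462 there (adjusted permutation p 0.0675), and miR-223-3p and the red cell measure an r of 0.745 (permutation p 7e-05, adjusted p 0.00063), with a rho of 0.626 (adjusted p 0.0136). Of the 14 member probes, 9 had a row in that table, and miR-151a-5p had none.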

How the data were processed

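Serum miRNAs of 23 cats were read on 1-colour Agilent arrays. Per the file headers, the deposited scanner files hold spot intensity from Agilent Feature Extraction 10.7.3.1, with background subtracted and no scaling between arrays, and flags of 0 or 1 with other information on each spot. The authors' deposited series table holds log2 values of 1758 probes, whose normalization is not given in the sources used here. Against the scanner signals, its correlation per array was 0.987 to 0.9998 and its slope 0.950 to 0.980 over probes above an intensity of 8, and its column medians were 2.98 to 3.31.

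Control spots and outlier spots (1.81% to 3.95% per array) were left out and the spots of a probe averaged. Each array was scaled by its 75th percentile, taken over 508 probes that every array detected, then floored at 5.45 and log2 transformed (floor 2.45). The probe with the highest mean stood for a name, and a name was tested when detected on at least 6 arrays, which left 543. No spot was saturated (0 on every array). Array number limits the precision.

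HCM and healthy were compared with limma 3.58.1 in R 4.3.3 (2-sided, no covariate), with moderated F tests for slide and for the interaction. Correlations used 2-sided permutation tests with 100000 resamples, or exact ones under 10 arrays, in Python 3.11.15. Because 3 members were not measured, the planned families of pairs and of relations with array measures held 3 and 9. limma and the permutation test were tested on simulated data. The members, lists, tests and alternatives were chosen with earlier results of these data known. The 3 names with the highest r to each member and, for each list, up to 3 with the smallest p were named; further names were chosen after their values were seen. Alternatives were other scalings, floors, probes, background correction, deposited values, total gene signals, covariates and left-out arrays. Background correction was normexp on the spot median signal, with an offset of 50.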

Additional observations from a re-analysis of the deposited data

Results flagged for a closer look

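miR-151a-3p on healthy replicate 25 lay apart from the other healthy arrays of slide 1. It read 6.82, and the nearest of the other 3 arrays read 5.84, a gap that was 0.917 of the whole range and so above Dixon's critical value of 0.829 for 4 samples. Such a value is reached by chance in about 5% of groups, and 15 groups of 4 arrays were looked at. Its unscaled intensity was 44.6 on an array with a 75th percentile intensity of 101, and its deposited log2 value was 6.51. The groups of 11 and 12 arrays were too large for this test.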

How the results depend on the processing

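No paired analysis was possible because HCM and healthy cats share no replicate number. Of the 3 members, 0 passed the threshold in any alternative. miR-223-3p stayed negative in all 15 alternatives other than leaving out 1 array (-0.57 to -0.15). It was also negative in the 23 that left out 1 array (-0.69 to -0.29). The permutation test and both changes of the detection filter left the values of the members unchanged, so no sign could turn there. miR-151a-3p turned to 0.15 without scaling between arrays, which also moved the median of all names from -0.10 to 0.21, and miR-197-3p turned to -0.20 after normexp (median of all names -0.26). The cause was not tested. Leaving out 1 array gave -0.43 to -0.05 for miR-151a-3p, 0.05 to 0.30 for miR-197-3p, and 0 called names in 23 of 23 fits. Over all names limma called 5 on the deposited log2 values, 4 on the total gene signal and 1 with the floor at the 1st percentile, and 0 of these were members. Of 3 pairs, 1 was called in the main values, with an r that 92.0% of all pairs of tested names did not exceed. In 9 alternatives 1 pair was still called, miR-223-3p with miR-197-3p. Among them were no scaling (r 0.526, adjusted permutation p 0.0199), both other floors, the mean of detected probes and residuals from group and slide means. The rest were within healthy, within slide 3, without the 4 arrays with fewest names and, chosen after seeing the data, array signal regressed out. The number was 0 with the 75th percentile over all probes, quantile normalization, deposited values, total gene signal, Spearman's rho, within HCM, within slides 1 and 2, and without the 2 farthest arrays or, chosen after seeing the data, healthy replicate 16. The r of miR-223-3p and miR-197-3p was 0.321 with all probes and 0.326 after quantile normalization. After normexp 3 pairs were called, with r of 0.937, 0.497 and 0.590. That setting adds an offset of 50 to every name before scaling. The median unscaled intensity was 10.3 for miR-223-3p and 13.2 for miR-197-3p. The offset divided by an array's scaling factor is shared by all names and can give a positive r by construction. Nothing on co-variation is concluded from it. Of 9 relations with array measures 2 were called in the main values, 5 without scaling and 1 on the deposited values (chosen after seeing the data). None was called with Spearman's rho or without the 2 farthest arrays. Without scaling, a positive r with array signal or names detected can arise by construction. The restriction to names whose main probe was detected on every array left 1 member, so no pair could be formed. Signal near background limits miR-151a-5p, miR-28-3p and miR-340-5p, which were not tested, and the low intensities of miR-223-3p and miR-197-3p. After scaling, low intensities were not always low values. Healthy replicate 25 did not detect miR-223-3p or miR-197-3p, yet read 4.10 and 3.45. Healthy replicate 15 read the floor of 2.45 for both, with 100% of their spots well above background.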
